A study of Mus musculus with 2 samples.

Results

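Transcript models that carry the first exons of a gene but stop before its last ones were examined in 2 long-read RNA-seq libraries of mouse adrenal gland. Members were the models classed as an incomplete match of the prefix kind, with 2 or more exons and a count of at least 5 reads in either library. Models with the same chain of splice junctions in the same gene were joined across the libraries, and 42 joined models carried another class in 1 library. This gave 1255 members in 840 genes, out of 88152 models of all kinds in replicate 1 and 92074 in replicate 2. The members were thus chosen by their read counts, so their levels are given as a description. Of all 12872 prefix chains, 224 just passed with a highest count of 5 and 360 stayed just outside with a highest count of 4.

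The study holds 1 group of 2 replicates, adrenal gland tissue of C57BL/6J mice obtained from The Jackson Laboratory, with total RNA as the labelled molecule. Notes on both samples name wild-type females, the sex field reads not collected and the age is unknown. The replicates are different biosamples with the same donor entry, so p-values here measure only the reads of these libraries. The labels name no treatment, second genotype or second tissue, and no comparison of conditions was possible.

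A messenger RNA is finished when its precursor is cut and a poly(A) tail is added, usually after the signal AATAAA or ATTAAA near the end of the last exon. A molecule can end earlier when a signal inside an intron is used, which gives a shortened message. A cDNA can also lack the 3' end of its message when an oligo(dT) primer anneals to an A-rich stretch inside the transcript. How the cDNA of these libraries was primed is not given in the sources used here.

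Sequencing gave 810239 reads in replicate 1 against 587861 in replicate 2. Levels are in CPM, the reads of a model scaled to a library of 1000000 reads. A count of 0 leaves room for up to 3 reads, which is 3.70 CPM in replicate 1 and 5.10 CPM in replicate 2. Markers of adrenal gland were abundant. The 6 cortex markers, with Cyp11a1 and Star among them, summed to 77322 and 90942 CPM, and 5 of 5 medulla markers were detected. All 5 kidney markers and the liver genes Alb and Serpina1a were at 0 in both libraries. The 4 liver markers summed to 2.47 and 0 CPM, and the 4 adipocyte markers to 128 and 35.7 CPM.

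The sequences that carry the main pattern come first. Each is the stretch of the coding exon in which a member ended, and the 20 bases with the most A in that exon stand in capitals. They are read 5' to 3' on the strand of the transcript from the GENCODE M21 transcript sequences, with coordinates on mm10.
Hsp90ab1, exon 6, chr17:45570388-45570437, minus strand: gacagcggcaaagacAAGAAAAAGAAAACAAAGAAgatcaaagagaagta
Srrm2, exon 5, chr17:23809993-23810042, plus strand: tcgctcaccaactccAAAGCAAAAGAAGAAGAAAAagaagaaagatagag
Eif5, exon 7, chr12:111541717-111541766, plus strand: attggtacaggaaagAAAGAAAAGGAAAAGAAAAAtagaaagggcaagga
Son, exon 3, chr16:91654694-91654743, plus strand: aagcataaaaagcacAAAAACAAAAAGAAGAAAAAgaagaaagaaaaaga
Hsp90b1, exon 7, chr10:86698319-86698361, minus strand: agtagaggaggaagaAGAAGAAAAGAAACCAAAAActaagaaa
Hspd1, exon 9, chr1:55080136-55080185, minus strand: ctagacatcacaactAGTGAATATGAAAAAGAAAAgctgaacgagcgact
Eif3a, exon 16, chr19:60769883-60769932, minus strand: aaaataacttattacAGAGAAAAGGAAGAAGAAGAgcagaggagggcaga
The capitals hold 13 A in Hspd1 and Eif3a, 15 in Srrm2 and Hsp90b1, 16 in Hsp90ab1 and Eif5, and 17 in Son. They start 2 to 23 nt after the deposited end in Hsp90ab1, Srrm2, Eif5 and Son. In Hspd1, Hsp90b1 and Eif3a they start 27 to 68 nt before the end, which lies on the last base of the exon. The Srrm2 end used here is that of replicate 2, at 23810006 with 5 reads. The replicate 1 model of the same junctions, with 393 reads, ended at 23810028, just past the capitals. For contrast, the exon where the chromogranin A member of 7 exons ended had at most 11 A in 20 bases.
Chga, exon 7, chr12:102563015-102563064, plus strand: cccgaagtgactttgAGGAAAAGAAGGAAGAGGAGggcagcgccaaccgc

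A-rich stretches were present in most exons in which members ended. Of 870 internal exons that held the end of a member, 650 (74.7%, 95% Clopper-Pearson interval 71.7 to 77.6) contained at least 12 A within some 20 bases. Of 11300 other internal exons of the same parent transcripts, 2239 (19.8%, 19.1 to 20.6) did. The share was 75.04% for members of replicate 1 (517 of 689 exons) and 77.9% for members of replicate 2 (236 of 303). Exon length differs between these sets, with a median of 139 nt where the end lay on an annotated boundary, 339 nt where it lay off one and 123 nt for the other exons. Counted per position, 5.88% of 20-base windows in the exons with an end held at least 12 A, against 1.25% in the other exons. Exons of a gene are not replicates, so these shares carry no test, and the part of A-rich stretches in the ends was not tested.

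**Figure D1:**
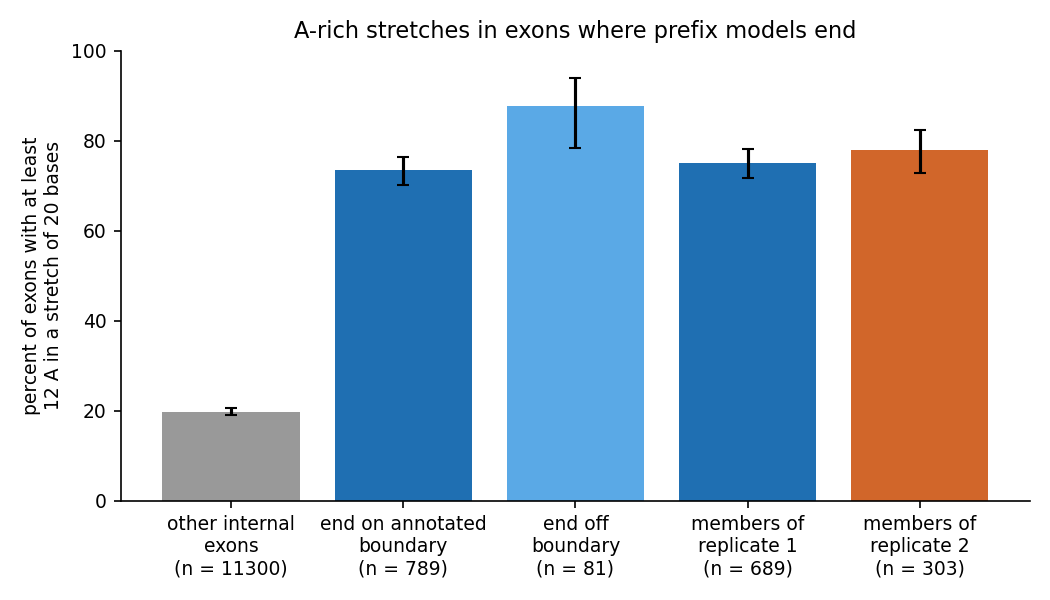
Percent of internal exons (vertical axis) that contain at least 12 A within 20 bases, for exons without and with the end of a member. Bars are shares and error bars their 95% Clopper-Pearson intervals; the last pair of bars regroups the exons with an end by the library in which the member had 5 or more reads. The exons with an end stand between 73.4 and 87.7%, the others at 19.8%.

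The deposited ends were mostly not free positions. An end lay exactly on the 3' end of an annotated exon in 1028 of 1255 members (81.9%). Among these, 435 fell on the annotated end of some transcript of the gene and 593 on the end of an internal exon, where a splice donor follows. In 120 of the 435, every transcript ending there was tagged in GENCODE as having an incomplete mRNA end, and in 129 only retained-intron transcripts ended there. The suffix models, which lack the 5' end and keep the 3' end, had 1585 of 1786 ends (88.7%) on an annotated boundary. Ends just past a boundary were rare: 5 members ended 1 to 200 nt past an exon end and 103 more than 200 nt past one. Before an exon end, 55 members ended within 200 nt and 64 farther away. Whether the reads of a model end where its deposited end lies was not tested, and the reads were not analysed here.

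**Figure D2:**
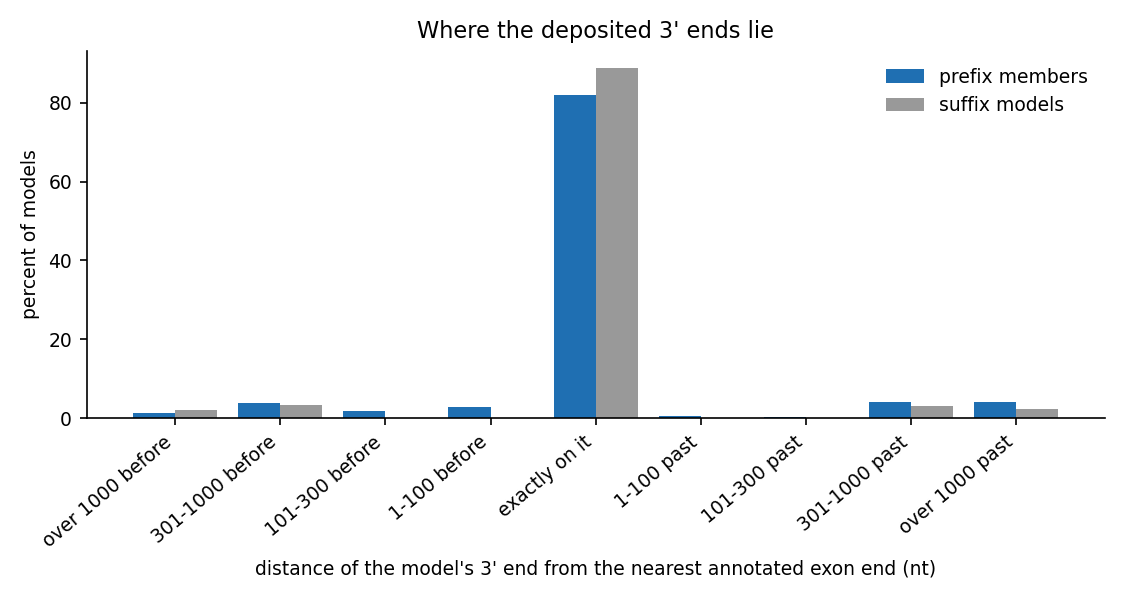
Percent of models (vertical axis) by the distance in nt from the model's 3' end to the nearest annotated exon end of the gene (horizontal axis, unequal bins), for 1255 prefix members and 1786 suffix models. The bar at exactly on it stands at 81.9% for members and 88.7% for suffix models, and the bins up to 300 nt past an exon end are nearly empty.

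The 227 members with an end off every boundary show the base composition at the end itself. For 124 of them the next 20 bases could be read from an annotated exon. At least 12 of these bases were A in 43 of the 124 (34.7%, interval 26.4 to 43.7), against 1.70% of all 20-base windows in the exons of the parents. The share was 24 of 64 (37.5%) where replicate 1 had more reads and 19 of 60 (31.7%) where replicate 2 did. Suffix models off a boundary had such a stretch in 46 of 163 (28.2%), and suffix models on an annotated transcript end in 40 of 413 (9.69%). On average A made up 48.9% of the bases from 1 to 20 after the free member ends and 32.4% of those from 21 to 50 before them, for the 75 members with all positions readable. Over all readable members the share with 12 or more A was 31.5% (146 of 463). It was 37.6% of 271 for ends on an annotated transcript end and 1 of 68 for ends on an internal exon, where another transcript had to extend the exon for the bases to be read.

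**Figure D3:**
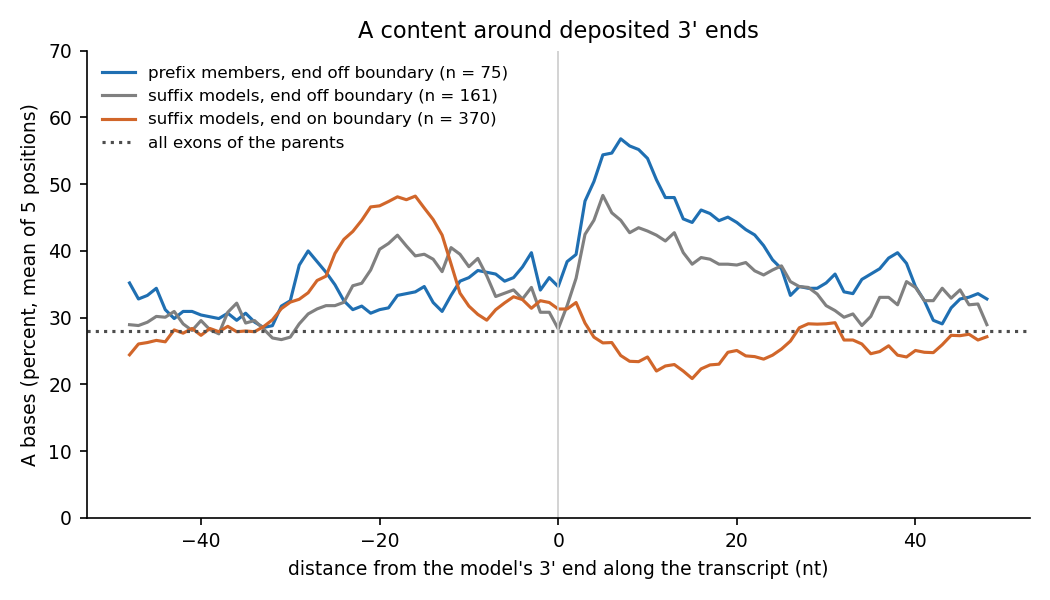
Percent of A (vertical axis, mean of 5 neighbouring positions) against the distance in nt from the model's 3' end along the transcript (horizontal axis), for ends that could be read over the whole range. The line of prefix members off a boundary is highest in the 20 bases after the end; suffix models on a boundary are highest before it; the dotted line is the A content of all exons of the parents, 27.96%.

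Polyadenylation signals were scarce at these ends. The letters AATAAA or ATTAAA, searched on the transcript strand in the 40 bases up to the end, were found in 171 of 1084 readable members (15.8%, interval 13.7 to 18.1). They were present at 1394 of 1757 suffix ends (79.3%) and in 3.78% of all 40-base windows in the parents' exons. The member share was 23.8% without replicate 1 and 10.9% without replicate 2. Among members the share differed with the place of the end. It was 7.87% (68 of 864) for ends inside an exon of the parent, 30.6% (19 of 62) for ends inside an intron and 72.6% (61 of 84) for ends beyond the whole intron. Intronic windows can be read only where another annotated transcript has an exon, which was so for 62 of 133. Ends on an annotated transcript end made up 258 of 913 inside an exon, 48 of 133 inside an intron and 81 of 113 beyond it. Off every boundary, 2 of 13 readable intron ends had the signal (15.4%, interval 1.92 to 45.4). For all readable members off a boundary it was 14 of 96 (14.6%), beside 64 of 173 suffix models off one (37.0%). On an annotated transcript end it was 109 of 401 members (27.2%) and 1330 of 1580 suffix models (84.2%). Most readable suffix ends were thus of this last kind, so the 15.8% and 79.3% compare unlike mixtures of ends. The part of annotated ends in the difference by place was not tested. An absent match says only that these letters are not in this window.

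The label of a missing 3' end held for most members but not for all. A parent, an annotated transcript whose junctions begin with those of the model, was found for 1159 members. For the other 96 only an unannotated model of the same library could serve as parent, and 48 of these ended within 50 nt of an annotated transcript end. Cyp11b1, the 11-beta-hydroxylase of corticosterone synthesis, shows this: its most read member had 9 exons, 78 reads in replicate 1, where the model carried another class, and 135 in replicate 2. In replicate 2 that model ended at position 74834125 of chromosome 15, an annotated transcript end of the gene, and in replicate 1 at 74834587. Reads of Cyp11b1 and its close paralog Cyp11b2 cannot be separated with certainty. Among members with a parent, 58 reached to within 50 nt of the end of the parent, each with a last exon that ran through at least 1 intron.

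Most members stopped inside the coding sequence. By place, 913 of 1159 ends (78.8%) lay in an exon of the parent, 133 (11.5%) in the following intron and 113 (9.75%) beyond that intron. The intron share was 17.6% without replicate 1 and 7.33% without replicate 2, and 6.04% when the end had to miss every annotated exon of the gene. A coding base of the parent was the last base in 901. The stop codon was missing in 1041 of 1117 members with a coding parent (93.2%, interval 91.6 to 94.6). Of the 76 that kept it, 67 were models whose last exon ran beyond an intron. The median member kept 7 of 15 exons, taken as separate medians, 36.7% of the length of the parent and 56.8% of its coding sequence. Exactly 1 exon was missing in 192 members and 5 or more in 660. The parents were long, with a median of 3856 nt, and 247 of 1159 had no read of their own in either library.

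The libraries differed in the reads spent on prefix models. They held 3.31% of reads in replicate 1 (interval 3.27 to 3.35) and 2.85% in replicate 2 (2.81 to 2.90), or 3.08 ± 0.324% (SD, n = 2). Members alone took 2.19% and 1.48% of reads. A single read made up 65.2% of prefix models in replicate 1 and 70.9% in replicate 2. Model length moved with the library as well. Over the reads of members, the median length of the model was 963 nt in replicate 1 and 2805 nt in replicate 2, beside 1685 and 3064 nt for reads on annotated multi-exon models. The part of read length in the differences below was not tested.

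A smaller share of members than of other models of like count was found in both libraries. Both libraries held 659 of 1255 members (52.5%), and 169 reached 5 reads in each. Replicate 1 alone held 445 and replicate 2 alone 151. With a highest count of 5 to 9, 42.8% of 675 members were in both, beside 56.6% of 5143 other multi-exon junction chains. With 10 to 49 reads the shares were 61.4% of 521 and 82.7% of 5806. In the range of 5 to 9 reads, 40.4% of members were in replicate 1 alone and 16.7% in replicate 2 alone, beside 19.8% and 23.6% of the other chains. These shares are a description with no test, and the members were chosen on the same counts. For the 659, the ends of the models were 10 nt or less apart in 488 (74.1%). Pairs were sorted by the 1 end used for the member, not by the end in the other library. Of the 518 pairs with that end on an annotated boundary, 429 (82.8%) were that close. Of the 141 pairs with that end off a boundary, 59 (41.8%) were, and 45 lay more than 300 nt apart. The 141 include pairs with the other end on a boundary, such as the Chgb member of 260 and 90 reads.

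The member with most reads in replicate 1 came from a chaperone gene. Hsp90ab1, the constitutive cytosolic chaperone (ENSMUSG00000023944.14), had a member of 6 of its 11 exons on chromosome 17 from 45570445 to 45573255. It counted 2813 reads in replicate 1 and 38 in replicate 2, that is 3472 and 64.6 CPM. Replicate 1 was far higher, and that single model held 80.8% of the gene's reads there and 2.64% in replicate 2. The end lies in coding exon 6, where a retained-intron transcript of the gene is annotated to end, and the richest A stretch printed for it starts 23 nt after that position.

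Members of 3 other chaperone genes stood lower in the order of reads. Hspd1, the mitochondrial chaperonin, had 382 and 28 reads on a model of 9 of 12 exons that ended on the last base of exon 9, at 55080102 on chromosome 1. Hsp90b1, the chaperone of the endoplasmic reticulum, had 294 and 6 reads on 7 of 18 exons, at 86698319 on chromosome 10. Dnaja1, a co-chaperone of Hsp70, had 175 reads in replicate 1 and 0 in replicate 2. These members of the 3 genes had more reads in replicate 1, although Hspd1 as a whole had 1480 reads in replicate 1 and 1791 in replicate 2, and Hsp90b1 had 505 and 836. Dnaja1 as a whole, with 1006 and 120 reads, was also higher in replicate 1. The exon in which the Dnaja1 member ended holds no stretch with 12 A, and the most was 11. Bulk tissue cannot tell fewer cells of a type from less RNA per cell, which bears on all levels given here.

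Among the other members with most reads in replicate 1, that of Kif5b, the kinesin heavy chain of organelle transport, had 439 reads there and 34 in replicate 2. Srrm2 and Son, large proteins of nuclear speckles, had 393 and 5 reads and 313 and 5 reads. The Srrm2 reads of replicate 1 sat on a model of the same junctions with the subtype Both, not Prefix. Counted as Prefix alone, this Srrm2 chain had 0 and 5 reads, and the prefix share of the gene was 4.19% and 21.1%, called higher in replicate 2 (Fisher's exact test, adjusted p = 0.00931). The Srrm2 member kept 6.82% of the coding sequence and the Son member 4.54%, and no read of either library fell on the annotated parent of either. The Son model ended near the start of an exon of 5970 nt, 5877 nt before its end, off any boundary at 91654703 on chromosome 16; in replicate 2 the end was at 91654699. Eif5, an initiation factor that acts on the start codon complex, had 320 and 3 reads, and Sec62, a component of protein translocation, 197 and 2. With the reads of either subtype, the chains of Srrm2, Son, Eif5 and Sec62 had 197 to 393 reads in replicate 1 and 2 to 5 in replicate 2.

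A smaller set was higher in replicate 2. Psmd1, a base subunit of the proteasome cap, had 123 and 298 reads, or 152 and 507 CPM, on 22 of 25 exons. It kept 88.04% of the coding sequence. Eif3a, a large scaffold of initiation factor 3, had 46.9 and 172 CPM on 16 of 22 exons, and Scaf11, an SR-related splicing factor, 34.6 and 155 CPM on 11 of 15. Rb1cc1, which acts early in autophagy, had 6 and 90 reads, and Slc4a7, a bicarbonate transporter, 4 and 64. These models were 2614 to 3295 nt long, while those of Hsp90ab1, Srrm2, Son, Eif5 and Sec62 were 366 to 929 nt long. Of the other members higher in replicate 1 among the 15 with the highest mean CPM, Dnaja1 and Chgb had 788 and 901 nt there. Those of Hsp90b1, Hspd1, Kif5b and Akr1cl were longer, at 1129, 1463, 1527 and 2034 nt in replicate 1.

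**Figure D4:**
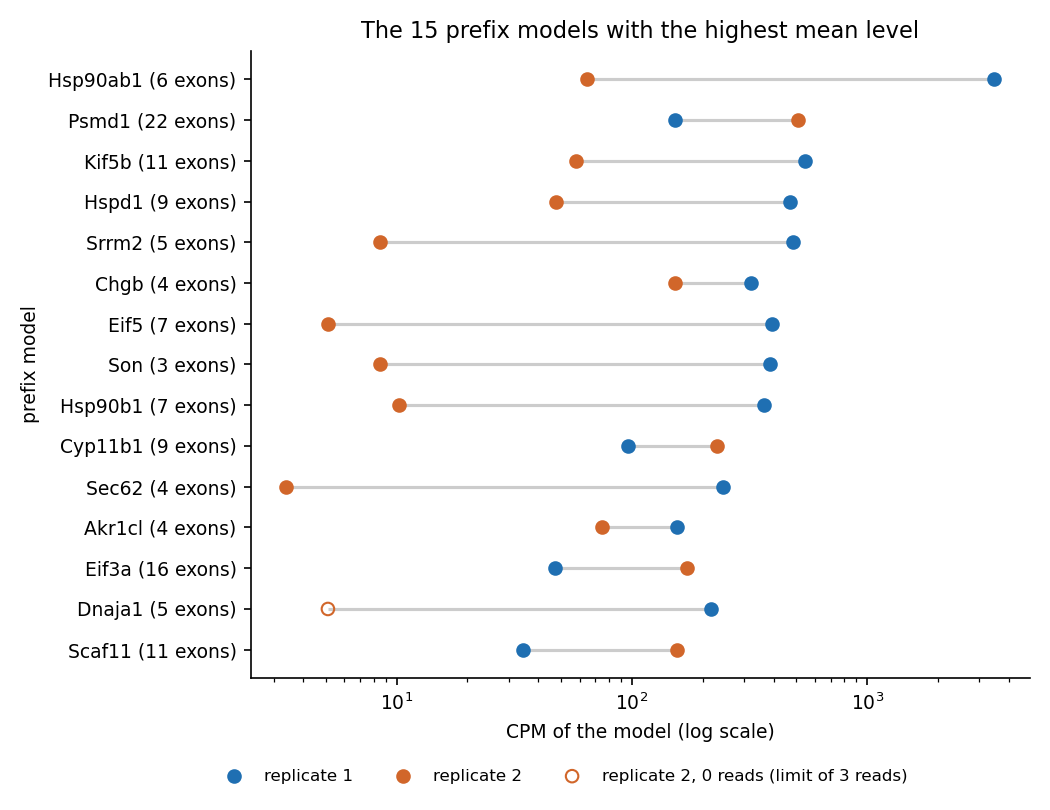
CPM on a log axis (horizontal) of the 15 members with the highest mean level, 1 row each, for replicate 1 and replicate 2. The open circle marks 0 reads, drawn at the limit of 3 reads, and all reads on the junction chain are counted; 11 models lie higher in replicate 1 and 4 in replicate 2, and Hsp90ab1 spans 64.6 to 3472 CPM.

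In some genes prefix reads were the larger part of the output in both libraries. Of 655 genes with members and at least 10 reads in each library, 52 had more than 50% of their reads on prefix models in both. Psmd1 had 168 of 202 reads (83.2%) and 386 of 409 (94.4%). Thoc2, of the mRNA export complex, had 82.9% and 84.2%, and Srrm1, a splicing coactivator, 85.5% and 75.8%. For Psmd1 the annotated parent of its main member had 3 and 5 reads. Counted library by library, 175 genes passed 50% in replicate 1 and 86 in replicate 2.

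The share of prefix reads was then compared between the libraries gene by gene, with Fisher's exact test (two-sided) and Benjamini-Hochberg adjustment over all 4806 genes tested. It compares reads of 2 libraries and no conditions. The test called 346 genes, 7.2% of those tested: 5.6% with a higher share in replicate 1 and 1.6% in replicate 2. Of the 655 genes with members, 252 were called (38.5%), 201 of them higher in replicate 1 and 51 in replicate 2. Members were chosen on these same counts, so nothing is read from their share beside the 7.2%. The median share was 25% in replicate 1 and 9.52% in replicate 2 for genes with members, and 0.104% and 0% over all genes tested. The median parent length was 3559 nt in the genes higher in replicate 1, 2344 nt in those higher in replicate 2 and 4234 nt in those not called.

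The extremes differed in kind. Hspd1 had prefix shares of 33.4% and 2.40% (Fisher's exact test, adjusted p = 2.34e-135), and Eif3c, another subunit of initiation factor 3, 73.7% and 0.940% (exact test, adjusted p = 3.52e-77). Kif5b had 81.6% and 26.2% (exact test, adjusted p = 7.55e-33). On the other side, Akr1b7, an aldose reductase-like enzyme of the zona fasciculata, had 0.651% and 13.7% (exact test, adjusted p = 3.77e-77). Coq10b, a coenzyme Q binding protein, had 0 of 72 reads, which allows up to 4.17%, and 51 of 76 (67.1%; exact test, adjusted p = 9.25e-19). The most read Akr1b7 member, with 14 and 84 reads, ran through a whole intron, and that of Coq10b ended 2696 nt into one.

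**Figure D5:**
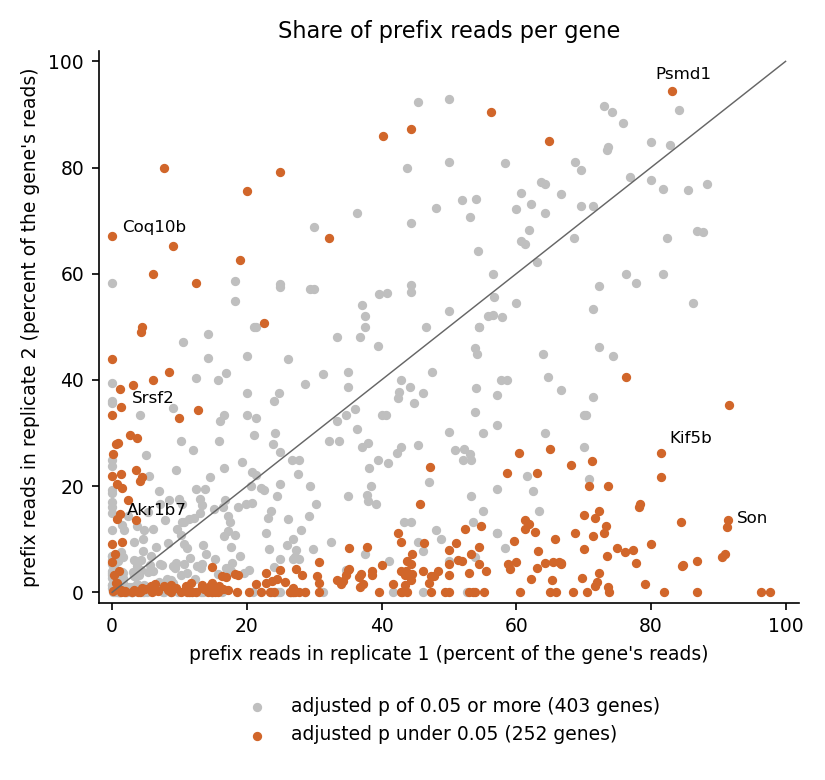
Prefix reads as a percent of the gene's reads in replicate 1 (horizontal) and replicate 2 (vertical) for the 655 genes with members, 1 point each; the line marks equal shares and colour the call of Fisher's exact test. Of the 252 called genes, 201 lie below the line and 51 above it.

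Genes of steroid synthesis carried 27 members in 8 of 15 genes. Over all 16674 annotated genes with reads in either library, 5.04% had members. A member needs 5 or more reads, and read depth was not matched between this list and all genes. Of 14 steroid genes tested, 1 was called higher in replicate 1 and 4 in replicate 2. Over all 4806 genes tested, these calls took 5.6% and 1.6%. The median shares of the steroid genes were 0.716% and 0.865%, beside 0.104% and 0% over all genes tested. The median difference within a gene, replicate 2 minus replicate 1, had the other sign at -0.198 percentage points. Cyp11a1, the side-chain cleavage enzyme, had 22 prefix reads of 6531 and 112 of 3408, which is 0.337% and 3.29% (Fisher's exact test, adjusted p = 1.68e-29). Its member with most reads, 9 and 46, shared the junctions of the first 7 of 9 exons. It then ran unspliced for 1417 nt past that exon, through the next intron of 478 nt and the rest of the gene. It reached the annotated end of the gene at 58027023 on chromosome 9, so it held the stop codon and 100% of the parent's bases. Another, with 7 and 38 reads, ended 1520 nt into an intron at 58022386, the end of an annotated retained-intron transcript, in both libraries.

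Star, which brings cholesterol into mitochondria, was the called steroid gene with the higher share in replicate 1, at 1.33% and 0.407% (Fisher's exact test, adjusted p = 1.58e-11). Its member of 6 of 7 exons had 81 and 14 reads and ended in replicate 1 546 nt into the last intron, at 25812429 on chromosome 8. In replicate 2 its end was at 25814472, beyond that intron of 889 nt. Cyp11b1 had 0.656% and 1.81% (exact test, adjusted p = 4.25e-16), and Fdx1, the adrenodoxin that passes electrons to mitochondrial P450 enzymes, 0 of 671 reads, which allows up to 0.447%, and 5.70% (exact test, adjusted p = 1.41e-05). Cyp21a1, the 21-hydroxylase, had 0.0903% and 0.271% (exact test, adjusted p = 0.000721); it has a pseudogene copy, so its reads are uncertain. Hsd3b1, at 0.141% and 0.377%, was not called (exact test, adjusted p = 0.156). Neither was Cyp11b2, with 4 of 16 and 12 of 191 reads, or 25% and 6.28% (exact test, adjusted p = 0.224).

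Chromaffin genes held 7 members in 4 of 15 genes, and 2 of 9 tested genes were called, both higher in replicate 1. Beside them, 5.04% of all genes with reads had members and 7.2% of all genes tested were called. The median shares of the chromaffin genes were 1.33% and 1.10%. Chgb, a granin of the secretory granules, had 265 prefix reads of 1621 and 91 of 2984, or 16.3% and 3.05% (Fisher's exact test, adjusted p = 6.99e-53). The Chgb model ended in exon 4, an exon of 1766 nt, at 132792584 on chromosome 2 in replicate 1 and at 132794095 in replicate 2, 1511 nt apart. Chga, the related granin, had 5.82% and 1.10% (exact test, adjusted p = 2.73e-12). Th, tyrosine hydroxylase, at the first step to the catecholamines, had 1.33% and 1.29% and was not called.

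Of the cleavage and polyadenylation factors, 3 of 23 genes had a member: Papola, the poly(A) polymerase, Wdr33, which contacts the AAUAAA signal, and Snrnp70 of the U1 particle that holds back early polyadenylation. Of the 14 tested, 0 were called by Fisher's exact test with adjustment, 2 had an unadjusted p under 0.05, and the median shares were 1.59% and 3.66%. For this list and the next ones, the shares over all genes were 5.04% with members and 7.2% of those tested called. Snrnp70 came nearest, with 0 of 16 and 13 of 33 reads (exact test, adjusted p = 0.0554). Among 12 genes with textbook intronic polyadenylation, the endothelial receptor gene Kdr was the single one with a member, 6 and 0 reads. That member ended on the last base of coding exon 11, not in an intron. Of this list, 0 of 4 tested genes were called, with 0 at an unadjusted p under 0.05 in Fisher's exact test. The median shares were 7.23% and 6.22%. In the SR and hnRNP list, 8 of 21 genes held 15 members and 2 of 19 tested genes were called, 1 in each direction, with median shares of 0.775% and 1.56%. Srsf2, a splicing activator, had 1.32% and 34.9% (exact test, adjusted p = 1.55e-19), and Ddx5, an RNA helicase, 6.37% and 1.48% (exact test, adjusted p = 0.00033). The Srsf2 member, with 4 and 28 reads, ran through an intron to within 50 nt of the parent's end and kept the stop codon. Its reads therefore do not show a missing 3' end.

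Members that ended in an intron were few but some were well read. Akr1cl, an aldo-keto reductase, led with 126 and 44 reads on 4 of 10 exons. It ended 1466 nt into an intron of 2666 nt on chromosome 1, and the ends of the libraries lay at 65023197 and 65023161. Of all 4766 and 356 reads of Akr1cl, prefix models took 4.41% and 21.6%. That share was called higher in replicate 2 (Fisher's exact test, adjusted p = 6.05e-25), although the member had more reads in replicate 1. Fgfr2, a fibroblast growth factor receptor, had 4 and 54 reads on 2 of 18 exons and kept 6.59% of the coding sequence, with ends at 130259850 and 130259825 on chromosome 7. Caprin1, an RNA-binding protein of stress granules, had 7 and 65 reads on 18 of 19 exons and ended at 103767107 on chromosome 2 in both libraries. That position is the end of an annotated coding transcript, and AATAAA or ATTAAA lies before it. Over the 133 members the median end was 1263 nt past the exon, in introns with a median of 3381 nt. Of these, 84 lay off every annotated boundary and 48 on an annotated transcript end.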

How the data were processed

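For every transcript model the authors deposited the raw count of reads, per the file headers. Each model has a class in the deposited tables and coordinates in a matching annotation, on mm10 with GENCODE M21, per the notes deposited with the files. Attribute names in the annotation point to TALON; for the aligner, read correction, cDNA preparation, platform and tool versions, nothing was given in the sources used here. Each library was annotated separately.

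Members and gene lists were chosen with earlier results of these data known. Models were matched between libraries by gene, strand and junction chain; 42 matched models carried another class in one library and were counted with the member, except in the shares of prefix reads per library and per gene. The end is that of the library with more reads classed as prefix. The parent is the annotated transcript with most reads, then the longest, whose junctions begin with those of the model. An end more than 10 nt past the parent's exon was placed in the intron. CPM is over all reads of a library. No mm10 genome was used; bases came from GENCODE M21 transcripts, so a window was read only where 1 annotated exon covers it. The shares by exon and by boundary, and those of other junction chains, were added after the data were seen. Counting error alone is covered by the intervals and the 3-read limits, because amplified reads are not independent molecules. Fisher's exact test (scipy 1.17.1, Python 3.11.15) was run over genes that had 10 or more reads both in replicate 1 and in replicate 2, and was tested on simulated data. Calls had an adjusted p under 0.05.

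Named members were the 15 with the highest mean CPM, the 6 highest in an intron and in an exon, the 6 with the highest share of a gene with at least 50 reads, the 4 with the largest CPM difference each way, and those of listed genes. Sequences were printed for named members in coding exons; Thoc2, Srrm1 and Eif3c, and the choice of printed stretches, were picked after their values were seen. Alternatives covered the count minimum, the subtype, the denominator, the distance limits, the A and signal rules, the parent and each replicate left out. Some withheld items are not reported here.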

Additional observations from a re-analysis of the deposited data

How the results depend on the processing

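Read counts per model are the limit: most prefix models have a single read, and each deposited end is 1 position per model. No paired analysis was possible because the series has 1 group. The mean share of reads on prefix models, 3.08%, was 3.48% over multi-exon reads, 3.45% with the subtype Both added and 1.83% for members alone, and 2.85 to 3.31% with 1 replicate left out. The count of genes called by Fisher's exact test, 346, stayed between 286 and 336 in its 3 alternatives. With a count of at least 10, 63.5% of members were in both libraries in place of 52.5%, and 8.70% ended in an intron in place of 11.5%. That intron share ran from 7.33 to 17.6% with 1 replicate left out, and was 6.04% when the end had to miss every exon of the gene. Where the end used for the member lay off the boundaries, 41.8% of pairs were within 10 nt in place of 74.1% (chosen after seeing the data). The A-rich share, 31.5%, was 44.5% with 10 or more A and 13.2% with 6 A in a row, and 31.6 to 33.8% with 1 replicate left out. The signal share, 15.8%, was 13.0% for AATAAA alone and 44.0% with 10 further single-base variants, against 15.9% of exon windows, and 10.9 to 23.8% with 1 replicate left out. The stop codon was missing in 87.9 to 96.3% with 1 replicate left out. The cause of these shifts was not tested.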
